A study of Drosophila melanogaster with 90 samples.

Results

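The libraries described here are those of whole Tasmania females, 1 of 5 inbred Drosophila melanogaster lines in the series, compared after a single mating and as virgins. They were chosen by their column names in the count table: 18 of its 89 libraries, with 15 from mated and 3 from virgin Tasmania females. The mated group is made of 5 crosses of 3 libraries each, with males of the Beijing, Ithaca, Netherlands, Tasmania and Zimbabwe lines. The labels name no mutation or transgene, and each population is represented by 1 inbred line. Virgins and males were aged 3 to 5 days in groups of 1 sex, females were frozen 5 to 6 h from the start of their mating, and virgins of the same age were frozen beside them. The labels give 25 °C and 12 h of light for all libraries. RNA came from 5 to 10 pooled females per library, and replicates came from separate bottles with all matings set up together. Total counts were 13714289, 13139297 and 26110627 in virgin replicates 1, 2 and 3 and 5759452 to 29237655 in the mated libraries. Over the whole series 12045 genes had enough counts to be tested.

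Mating changes the physiology of a Drosophila female within hours. Sperm and seminal fluid proteins, among them the sex peptide, enter the reproductive tract, and egg production rises, renewed mating becomes less likely, sperm are stored and the proteins of the ejaculate are cut by female and male proteases. Juvenile hormone, a sesquiterpenoid made in the corpora allata, is known to rise after sex peptide transfer and to promote yolk uptake, and peptidoglycan sensing by the Imd pathway tunes the antibacterial response of the gut and fat body.

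Virgin replicate 3 stood apart from its label before any comparison was made. Genes that are nearly silent in mated Tasmania females and well expressed in mated Zimbabwe females were present in it. CG32718 had 1.43 and 0.301 CPM (counts scaled by library size) in virgin replicates 1 and 2 and 13.2 CPM in virgin replicate 3, against a median of 0.258 CPM in mated Tasmania and 91.9 CPM in mated Zimbabwe females. The cytochrome P450 gene Cyp12d1-d, which has a near-identical copy so that its count is uncertain, had 0.143, 0 and 2.25 CPM in virgin replicates 1, 2 and 3 and medians of 0 and 8.85 CPM in mated females of the Tasmania and Zimbabwe lines. Over 5 such markers, chosen on mated libraries only, virgin replicate 3 held a median of 21.1% of the Zimbabwe level, and the 5 single values ran from 12% to 25.4%. The same share was 1.62% in virgin replicate 1, 0.0469% in virgin replicate 2 and between -0.282% and 1.99% in the 15 mated libraries. Markers of the Beijing, Ithaca and Netherlands lines, each 10-fold over every other line, gave at most 2.05% in virgin replicate 3. With markers set against Tasmania alone, which lines may share, it had 18.9% for Zimbabwe, 8.21% for Beijing, 6.97% for Ithaca and 6.09% for Netherlands.

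**Figure D1:**
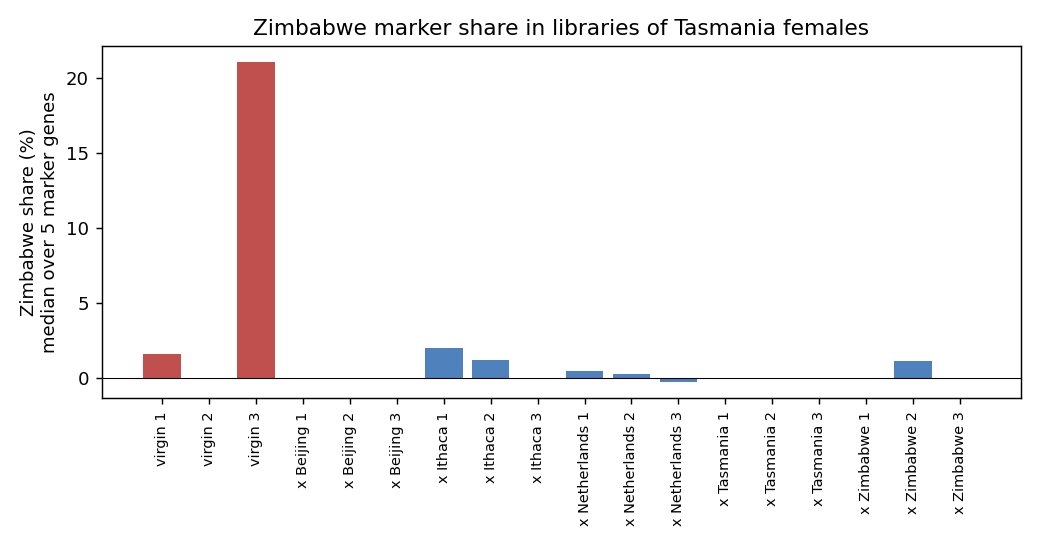
Share of the Zimbabwe level (%, y axis; median over 5 marker genes, no error bars) in each library of Tasmania females, with virgins in red and mated libraries in blue by line of mate and replicate. Virgin replicate 3 stands at 21.1%, and the other 17 libraries lie between -0.282% and 1.99%.

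Virgin replicate 3 was also compared with the other virgins over more genes, from which the markers were not removed. Mated Zimbabwe and mated Tasmania females differed in 3872 genes (32.1% of those tested; edgeR's quasi-likelihood test, Benjamini-Hochberg adjusted p under 0.05). Genes with a mean of at least 1 CPM over the Tasmania libraries were binned by their ratio between these lines. Virgin replicate 3 counts in that mean, so a high level there alone could bring a gene in and raise the median of its bin. The bin of a gene was set by mated libraries only. In the 20 such genes more than 3 log2 units higher in Zimbabwe, virgin replicate 3 was a median of 1.20 log2 units above virgin replicates 1 and 2. In the 73 genes more than 3 units lower in Zimbabwe it was a median of 0.30 units below them (log2 change -0.30). Between virgin replicates 1 and 2 the same medians were 0.56 and -0.14. The results below are therefore given with the 3 virgin libraries and again without replicate 3, which leaves 2.

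**Figure D2:**
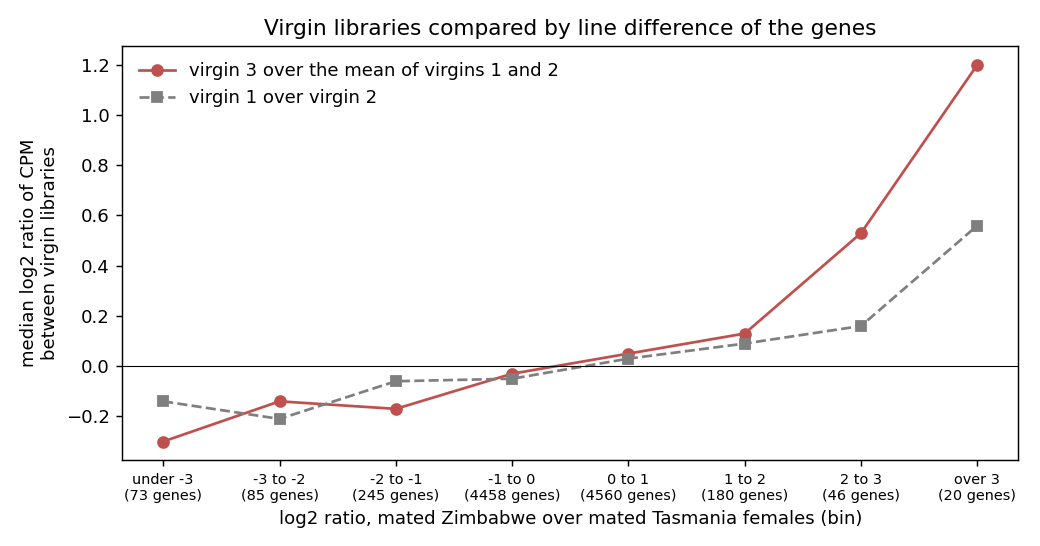
Median log2 ratio of CPM between virgin libraries (y axis) for genes binned by their log2 ratio of mated Zimbabwe over mated Tasmania females (x axis, number of genes in brackets). Genes have a mean of at least 1 CPM over the Tasmania libraries, virgin replicate 3 included, and the markers were not removed. The red line, virgin replicate 3 over replicates 1 and 2, goes from -0.30 in the lowest bin to 1.20 in the highest; the grey line, virgin replicate 1 over replicate 2, goes from -0.14 to 0.56.

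With all 3 virgin libraries, 99 genes changed between mated and virgin Tasmania females, which is 0.822% of those tested; 39 rose (0.324%) and 60 fell (0.498%; edgeR's quasi-likelihood test, adjusted p under 0.05). With this replicate 3 left out, 2 genes passed (0.0166%): CTPsyn rose and CG4998 fell. Neither belongs to a gene list used here, so every list described below had 0 calls by edgeR without virgin replicate 3, and the calls given for lists are those with 3 virgins. At an unadjusted p under 0.05 there were 1048 genes (8.7%) with 3 virgins and 756 (6.28%) with 2, and DESeq2's test called 185 and 55. The values of mated and virgin libraries did not overlap in 103 genes (0.855%), 42 with the virgins lowest and 61 with the virgins highest. With virgin replicates 1 and 2 alone it was 197 genes (1.64%). Fewer virgin libraries fall outside the mated range more often by chance, so the larger number shows no stronger separation. The share to be met by chance was not worked out. The count of genes called by edgeR also fell when another virgin library was left out, to 41 without replicate 1 and 53 without replicate 2. A covariate for gene length bias, a measure of RNA quality, raised the count to 475 genes with 3 virgins and 122 with 2; the slope of log2 CPM on log2 exon length was 0.37, -0.06 and 0.32 in virgin replicates 1, 2 and 3 and -0.09 to 0.39 in mated libraries, and its part in the calls was not tested beyond this fit. RNA is from whole flies, so that fewer cells of a type and less RNA per cell cannot be told apart.

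Leaving out virgin replicate 3, 1 of the 39 rises and 1 of the 60 falls stayed called; for replicate 1 it was 7 and 33, and for replicate 2 it was 8 and 32. The sizes of the changes depended on virgin replicate 3 mainly for the falls. All 39 rises had the same sign and an unadjusted p under 0.05 (edgeR) without virgin replicate 3, and likewise without replicate 1 or 2. Most libraries behind these calls stay in each fit, so this is no independent support. Of all 12045 genes tested, 10292 kept their sign without virgin replicate 3. The median log2 change of the rises was 0.41 with and 0.42 without this library. In mated Zimbabwe females 0 of the 39 were at least 2-fold higher than in mated Tasmania females, against 4.73% of all genes tested. At least 2-fold lower was 1 (2.56%), against 6.01% of all genes. Of the 60 falls, 58 had the same sign and 44 an unadjusted p under 0.05 without virgin replicate 3. Their median log2 change went from -1.10 to -0.85. Among these falls 24 (40%) were at least 2-fold higher in mated Zimbabwe females. Counting genes within 1.5-fold between these lines, chosen after the data were seen, 59 of the 99 calls were left, 35 higher and 24 lower.

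A hormone synthesis gene and cuticle genes were among the larger rises. The gene jhamt, which encodes the juvenile hormone acid methyltransferase of the last steps of juvenile hormone synthesis, had 1.65, 2.41 and 2.06 CPM in the virgin libraries and a lowest, median and highest value of 4.31, 8.96 and 32.8 CPM in the mated ones. All 15 mated libraries lay above all virgins, and the virgins were close to each other. The log2 change was 2.41 ± 0.46 (SE; 5.32-fold, adjusted p = 0.00224 by edgeR) with 3 virgins and 2.42 ± 0.57 (adjusted p = 0.0703) with 2. Pcp, a pupal cuticle protein gene, had 2.01, 3.69 and 1.28 CPM in virgins and 5.15, 9.88 and 19.8 CPM in mated libraries, again with no overlap. It rose by 2.14 ± 0.42 (adjusted p = 0.00282, edgeR), and the change was 1.82 ± 0.49 (adjusted p = 0.104) without virgin replicate 3. Cpr47Ef, another cuticle protein gene, had 13.5, 11.7 and 11.5 CPM in virgins and 12.8, 31.2 and 45.8 CPM in mated females, with 14 of 15 mated libraries above all virgins. It rose by 1.21 ± 0.32 (adjusted p = 0.0463, edgeR); without virgin replicate 3 its change was 1.16 ± 0.39 (adjusted p = 0.314).

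Juvenile hormone genes did not move as a group. The 15 tested span synthesis, breakdown and reception. Of these jhamt rose (6.67%, against 0.324% of all genes) and Cyp6g2, a cytochrome P450 gene, fell (6.67%, against 0.498%). The median log2 change was 0.06 (-0.01 without virgin replicate 2), against -0.01 for all genes. Cyp6g2 had 44.7, 55.3 and 45.9 CPM in virgins and 16.8, 27.2 and 37.5 CPM in mated females, with no overlap (log2 change -0.83 ± 0.18, adjusted p = 0.00829 by edgeR; -0.88 ± 0.22, adjusted p = 0.0841 without virgin replicate 3). Of 50 cuticle protein genes tested 2 rose (4%, against 0.324% of all genes) and 1, TwdlBeta, fell (2%, against 0.498%), with a median of 0.10. The ecdysone list, 22 genes of the moulting hormone, had 0 calls by edgeR. At an unadjusted p under 0.05, 1 of its genes was lower (4.55%, against 5.15% of all genes).

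CTPsyn, which encodes CTP synthase, the enzyme that makes the nucleotide CTP and assembles into filaments called cytoophidia, was the rise that passed in both forms of the comparison. Its levels were 104, 102 and 114 CPM in virgins and 118, 141 and 170 CPM as lowest, median and highest in mated females. No mated library reached down to a virgin one. CTPsyn rose by 0.39 ± 0.07 (1.31-fold, adjusted p = 0.00147, edgeR) with 3 virgins and by 0.44 ± 0.09 (adjusted p = 0.0314) with 2. Leaving out virgin replicate 1 or 2 gave adjusted p = 0.0279 and 0.0330. The call with 3 virgins was lost in 3 of 17 alternatives: 0.0521 without the libraries of replicate 2 of every group, 0.193 without those of replicate 3, and 0.18 with Tasmania libraries alone. With 2 virgins it was lost in 6 of 16, with adjusted p up to 0.611, while the log2 change stayed between 0.36 and 0.47 in all of them (edgeR and DESeq2).

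Several rises were in genes of protein production. Srp72, a subunit of the signal recognition particle that guides new proteins to the endoplasmic reticulum, had 69.1, 60.4 and 64.3 CPM in virgins and 78.7, 86.6 and 99.2 CPM in mated libraries, which do not overlap. It rose by 0.44 ± 0.09 (adjusted p = 0.00393, edgeR), with 0.44 ± 0.11 (adjusted p = 0.0841) without virgin replicate 3. Nopp140, a nucleolar phosphoprotein of ribosome assembly, had 214, 162 and 215 CPM in virgins against 204, 304 and 378 CPM, and 13 of 15 mated libraries exceeded all virgins (log2 change 0.60 ± 0.14, adjusted p = 0.0187 by edgeR; 0.67 ± 0.17, adjusted p = 0.0951 without virgin replicate 3). CG7839, the fly Noc1 gene of the large ribosomal subunit's assembly, rose from 95.5, 102 and 103 CPM in virgins to 108, 128 and 154 CPM in mated females, with no overlap (0.37 ± 0.08, adjusted p = 0.0115; 0.39 ± 0.10, adjusted p = 0.0951 without virgin replicate 3; edgeR). These are changes of under 2-fold, seen above the virgins in nearly all mated libraries.

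Other rises of this kind fell outside the naming rule and were picked with their values in view. The Noc3 and Noc2 genes CG1234 and CG9246 rose by 0.31 ± 0.08 and 0.33 ± 0.09. Leucyl-, glycyl- and methionyl-tRNA synthetase genes (CG33123, Aats-gly and CG15100), which charge tRNAs with amino acids, rose by 0.38 ± 0.09, 0.38 ± 0.09 and 0.39 ± 0.10, and asparagine-synthetase rose by 0.70 ± 0.16. Pdi, a disulfide isomerase of the endoplasmic reticulum, rose from 677, 649 and 662 CPM to 767, 877 and 1010 CPM (0.40 ± 0.09, adjusted p = 0.0127, edgeR), and OstDelta, of the complex that attaches sugars to new proteins, by 0.30 ± 0.07. None of these passed without virgin replicate 3, where their log2 changes were 0.26 to 0.64 with adjusted p from 0.104 to 0.402.

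Lists of such genes, made after these values were seen and so no independent support, were described by counts. With 3 virgins, 3 of 33 aminoacyl-tRNA synthetase genes rose and none fell, 31 had a positive change, and the median was 0.16. Among 30 nucleolar and ribosome assembly genes 5 rose and 28 were positive, with a median of 0.23. For 25 genes of protein entry into the endoplasmic reticulum the counts were 3 called and 25 positive, with a median of 0.25. Over all genes 0.324% rose, and the median was -0.01. Without virgin replicate 3 the 3 lists had 0 calls by edgeR. At an unadjusted p under 0.05, 10, 11 and 9 of their genes were higher, against 342 of all 12043 genes. A positive change was seen in 28, 28 and 25, with medians of 0.15, 0.24 and 0.22, where 46.7% of all genes were positive. Of 92 cytosolic ribosomal protein genes 0 were called by edgeR and 0 had an unadjusted p under 0.05. Their direction turned with the virgin library left out: the median was -0.02 with all 3, -0.12 with 17 positive without replicate 1, 0.14 with 85 positive without replicate 2, and -0.06 with 29 positive without replicate 3.

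Chaperones included 3 genes that rose. Hsp83, the fly Hsp90, had 2810, 2340 and 2660 CPM in virgins and 2590, 4150 and 6570 CPM in mated females; 14 of 15 mated libraries were above all virgins (0.74 ± 0.16, adjusted p = 0.00576 by edgeR; 0.76 ± 0.19, adjusted p = 0.0841 without virgin replicate 3). Hsp68, an inducible Hsp70 relative, had 6.81, 4.97 and 6.6 CPM against 6.23, 14.6 and 27.5 CPM (1.14 ± 0.29, adjusted p = 0.0344; 1.20 ± 0.35, adjusted p = 0.191 without virgin replicate 3; edgeR). Hop, the co-chaperone that joins Hsp70 and Hsp90, rose by 0.39 ± 0.10 and was chosen after its value was seen. Of 22 heat shock and chaperone genes tested 3 rose (13.6%, against 0.324% of all genes) and 1, Hsc70-2, fell (4.55%, against 0.498%), with a median log2 change of 0.29 with 3 virgins and 0.38 with 2. Hsc70-2 is one of the genes that are high in Zimbabwe females, with 3.37, 2.48 and 16 CPM in virgin replicates 1, 2 and 3.

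Further rises that the rule named came from varied functions. CG30272, a gene annotated as the transporter MFS1, had 1.22, 2.71 and 1.69 CPM in virgins and 1.86, 10.9 and 16.9 CPM in mated females (2.31 ± 0.56, adjusted p = 0.0253 by edgeR). Wnt2, a signalling ligand, had 1.43, 1.73 and 1.5 CPM against 2.15, 2.75 and 5.5 CPM, with no overlap (1.01 ± 0.26, adjusted p = 0.0365, edgeR). CG5527, annotated as the neprilysin-type peptidase Nep7, rose by 0.95 ± 0.19 (adjusted p = 0.00336, edgeR), CG31288 by 1.13 ± 0.29, CG31259 by 1.63 ± 0.42 and CG10576 by 0.39 ± 0.09. With 2 virgins their log2 changes were 0.44 to 2.23, and adjusted p ran from 0.0703 for CG10576 to 0.276 for Wnt2.

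**Figure D3:**
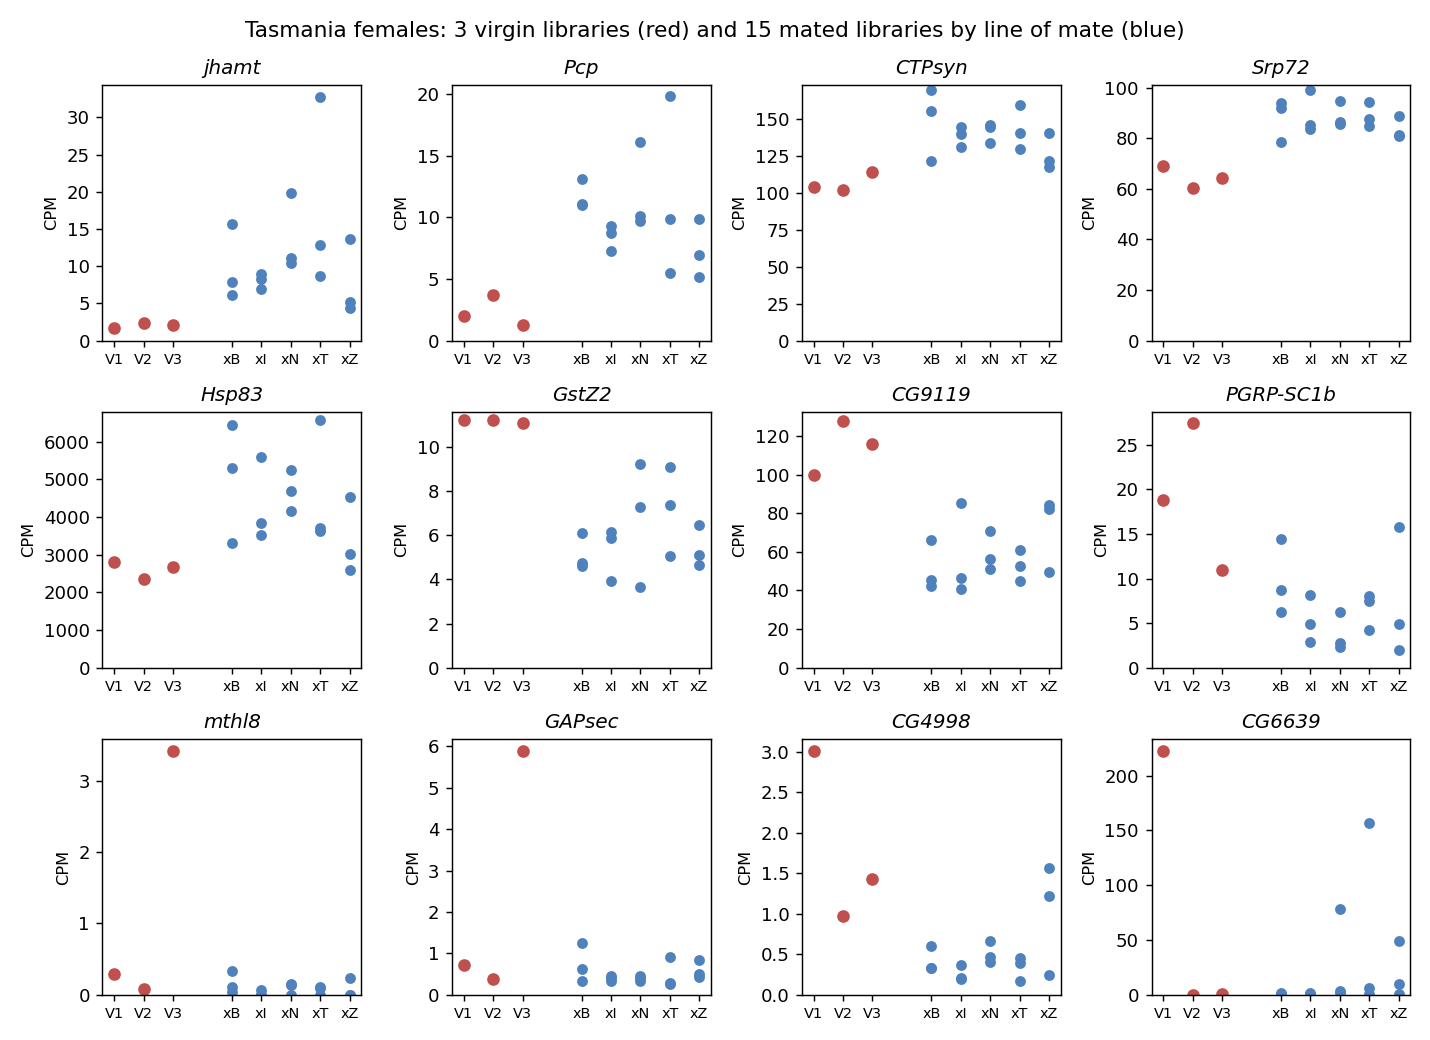
CPM (y axes, from 0) of 12 genes in each library of Tasmania females, with virgin replicates 1 to 3 (V1 to V3, red) and 3 mated libraries per line of mate (blue; xB Beijing, xI Ithaca, xN Netherlands, xT Tasmania, xZ Zimbabwe). For jhamt, Pcp, CTPsyn and Srp72 all 15 mated points are above all virgins and for GstZ2 and CG9119 all are below; for mthl8 and GAPsec only virgin replicate 3 is high, and for CG6639 virgin replicate 1.

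The largest falls with 3 virgins were mostly genes of virgin replicate 3 alone. The methuselah-like receptor gene mthl8 had 0.287, 0.0753 and 3.41 CPM in virgin replicates 1, 2 and 3, 0 to 0.329 CPM in mated Tasmania females, and a median of 17.7 CPM in mated Zimbabwe females. Its log2 change was -4.28 ± 0.49 (adjusted p = 1.42e-08, edgeR) with 3 virgins and -1.36 ± 0.78 (adjusted p = 0.935) with 2. GAPsec had 0.717, 0.376 and 5.89 CPM in virgins and a mated median of 0.442 CPM, and its change went from -2.31 ± 0.27 (adjusted p = 1.42e-08) to -0.10 ± 0.26 (adjusted p = 1; edgeR). The serine protease family gene Jon65Aii had 1.79, 0.452 and 18.7 CPM, with -4.20 ± 0.52 and, without virgin replicate 3, -1.50 ± 0.76 (adjusted p = 0.809, edgeR). CG11313 (-4.68 with, -1.73 without), CG32718 (-4.06 with, -1.48 without) and Cyp12d1-d (-4.48 with, -1.03 without) showed the same: high in virgin replicate 3, low in the other virgins and in mated libraries, and much higher in mated Zimbabwe females.

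For 2 further falls virgin replicate 1 set the size. CG6639, annotated as the serine protease homologue SPH93, had 222, 0.226 and 0.338 CPM in virgins and 0.0654 to 157 CPM in mated females. The groups overlapped widely, and its log2 change of -3.54 ± 0.91 (adjusted p = 0.0377, edgeR) became 4.39 (adjusted p = 0.537) without virgin replicate 1. CG9759 had 12.7, 2.71 and 2.03 CPM against a mated range of 1.01 to 3.78 CPM; its change was -1.55 ± 0.39 (adjusted p = 0.0344) with 3 virgins, and its adjusted p was 1 without virgin replicate 1 (edgeR). Virgin replicate 1 also had the highest immune peptide level of the virgins, with IM1 at 483 CPM against 42.5 and 54.4 CPM in replicates 2 and 3.

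CG4998 was the fall that passed with and without virgin replicate 3. It had 3.01, 0.978 and 1.43 CPM in virgins and a lowest, median and highest value of 0.172, 0.399 and 1.57 CPM in mated females, so that virgin replicate 1 is the highest and 13 of 15 mated libraries lie below all virgins. Its log2 change was -1.94 ± 0.30 (adjusted p = 3.48e-05) with 3 virgins and -2.10 ± 0.35 (adjusted p = 0.00141) with 2, and without virgin replicate 1 the change was -1.39 (adjusted p = 0.0530, edgeR). The call with 3 virgins was also lost without the libraries of replicate 1 of every group (adjusted p = 0.0951) and with Tasmania libraries alone (0.0665). With 2 virgins it was lost in the same alternatives, at -1.08 (adjusted p = 0.458) without virgin replicate 1, -1.17 (0.389) without replicate 1 of every group and -2.09 (0.303) with Tasmania libraries alone. CG4998 is also higher in the Zimbabwe line, with a median of 4.73 CPM in mated Zimbabwe females, 3.43 log2 units above mated Tasmania ones. The cross with Zimbabwe males had the smallest change of the 5, at -0.75 ± 0.41 (adjusted p = 1) with 3 virgins and -0.91 ± 0.46 (adjusted p = 1) with 2, against -2.80 to -1.83 and -2.95 to -1.98 in the other crosses (edgeR); the test of a difference between lines of mate did not pass (adjusted p = 0.341).

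For a set of falls no single virgin library set the size. GstZ2, a zeta-class glutathione S-transferase, had 11.2, 11.2 and 11.1 CPM in virgins and 3.64, 5.86 and 9.22 CPM in mated females; CG9008 had 51.4, 58.4 and 58.3 CPM against 25.2, 36.2 and 48 CPM. Neither gene's groups overlap. GstZ2 fell by 0.93 on the log2 scale (SE 0.19, adjusted p = 0.0044) with 3 virgins, and the change was -0.93 ± 0.23 (adjusted p = 0.0828) with 2; CG9008 had -0.66 ± 0.12 (adjusted p = 0.00147) and -0.64 ± 0.15 (adjusted p = 0.0703), by edgeR. CG9119 had 100, 128 and 116 CPM against 40.6, 52.8 and 85.2 CPM (-0.98 ± 0.20, adjusted p = 0.00324, and -0.97 ± 0.23, adjusted p = 0.0703, edgeR), and CG16775 had 70.6, 113 and 83.8 CPM against 18.6, 33.6 and 96 CPM (-1.24 ± 0.26 and -1.28 ± 0.30). All 15 mated libraries were below the virgins for CG9119, and 14 were for CG16775, whose virgins were further apart and whose highest mated library exceeded 2 of them. Without virgin replicate 2, CG9119 and CG16775 did not pass (adjusted p = 0.0545 and 0.122, edgeR).

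A further 4 falls lay outside the naming rule and were picked with their values in view, so they stand for no pathway. Hn, which encodes phenylalanine hydroxylase, had 175, 225 and 207 CPM in virgins and 80.4, 130 and 167 CPM in mated females, with no overlap (-0.69 ± 0.16, adjusted p = 0.0176 by edgeR; -0.67 ± 0.19, adjusted p = 0.165 without virgin replicate 3). Got1, a glutamate oxaloacetate transaminase, had 236, 306 and 278 CPM against 180, 204 and 241 CPM (-0.41 ± 0.09, adjusted p = 0.00507; -0.40 ± 0.10, adjusted p = 0.0951). Sodh-2, a sorbitol dehydrogenase, changed by -0.92 ± 0.21, and Cp1, a cathepsin L-type protease, by -0.49 ± 0.12. Their values were nearly the same without virgin replicate 3, at -0.89 ± 0.25 and -0.53 ± 0.14, with adjusted p of 0.144 and 0.104 (edgeR). Asparagine-synthetase, another enzyme of amino acid metabolism, was among the rises given above.

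The calls among detoxification genes were falls. Of 78 cytochrome P450 genes tested 0 rose and 3, Cyp6g2, Cyp12a5 and Cyp12d1-d, fell with 3 virgins (3.85%, against 0.498% of all genes), and the last of these is one of the genes high in virgin replicate 3. At an unadjusted p under 0.05, 15 were lower (19.2%, against 5.15% of all genes) and 5 higher, and the median log2 change was -0.18. Without virgin replicate 3 there were 0 calls by edgeR, a median of -0.14 and 27 of 77 positive. At an unadjusted p under 0.05, 10 were then lower and 2 higher, against 414 and 342 of all 12043 genes. Cyp6g1, known for insecticide resistance, had 4080, 4190 and 3940 CPM in virgins and 2080, 2740 and 3610 CPM in mated females, with no overlap, but did not pass (-0.52 ± 0.15, adjusted p = 0.0905; -0.54 ± 0.18, adjusted p = 0.339 without virgin replicate 3; edgeR). Cyp6a9 likewise had 42.3, 39.4 and 38.9 CPM against 20.6 to 38.2 CPM (-0.58 ± 0.17, adjusted p = 0.0802; -0.61 ± 0.20, adjusted p = 0.314 without virgin replicate 3). GstZ2 was the call among 34 glutathione S-transferase genes (2.94%), whose median was 0 with 3 virgins and -0.07 without replicate 3, but 0.18 without replicate 2.

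Among the 40 immune recognition and signalling genes the calls were 2 falls (5%, against 0.498% of all genes), both of proteins that limit peptidoglycan signalling. PGRP-SC1b, an amidase that degrades peptidoglycan, had 18.8, 27.4 and 11 CPM in virgins and 1.99, 6.25 and 15.8 CPM in mated females; 13 of 15 mated libraries lay below all virgins (-1.59 ± 0.36, adjusted p = 0.0111; -1.87 ± 0.40, adjusted p = 0.0570 without virgin replicate 3; edgeR). Its near-identical copy PGRP-SC1a, whose reads may be shared with it so that both are uncertain, had -1.29 ± 0.38 (adjusted p = 0.0837; -1.62 ± 0.43, adjusted p = 0.104 without virgin replicate 3). PGRP-LF, a membrane protein that blocks the Imd receptor, had 7.24, 8.58 and 5.18 CPM against 1.92, 3.1 and 5.09 CPM, with no overlap (-1.04 ± 0.25, adjusted p = 0.0198; -1.22 ± 0.28, adjusted p = 0.0703 without virgin replicate 3). The intracellular Imd inhibitor gene pirk did not pass, at 39.6, 53.8 and 42.1 CPM against 14.3 to 56.9 CPM (-0.74 ± 0.24, adjusted p = 0.147; -0.79 ± 0.28, adjusted p = 0.416 without virgin replicate 3). Over these 40 genes the median was -0.05, and without virgin replicate 3 it was -0.11.

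No antimicrobial peptide gene was called in the contrast pooled over the crosses, and 1, Def, was called in single crosses. Of 20 tested 0 passed in the pooled contrast in edgeR. With 3 virgins 1, the defensin gene Def, was higher at an unadjusted p under 0.05 (5%, against 3.55% of all genes). A positive change was seen in 8, and the median was -0.17 with 3 virgins and -0.44 with 2. These medians turned with virgin replicate 1, the library with the high IM1 level: without it, and with replicates 2 and 3 kept, the median was 0.61 and 16 of 20 were positive, and without virgin replicate 2 it was 0.33 with 11 positive. Def had 7.67, 5.19 and 2.55 CPM in virgins and 2.81, 8.77 and 200 CPM as lowest, median and highest in mated females (1.66 ± 0.54, adjusted p = 0.147; 1.31 ± 0.63, adjusted p = 0.741 without virgin replicate 3; edgeR). Its high values lay in the crosses with Tasmania and Zimbabwe males, where the mean was 40.3 and 86.6 CPM, against 5.67 to 8.27 CPM in the other 3 crosses, and it is 1 of 25 genes (0.208%) that differed between lines of mate. With 3 virgins it rose in the cross with Tasmania males (3.00 ± 0.64, adjusted p = 0.0175) and in that with Zimbabwe males (4.09 ± 0.67, adjusted p = 0.000854), and without virgin replicate 3 neither passed (2.65 ± 0.74 and 3.74 ± 0.78, adjusted p = 0.226 and 0.116; edgeR). Replicates 1, 2 and 3 had 78.4, 32.9 and 9.55 CPM with Tasmania and 200, 50.7 and 9.04 CPM with Zimbabwe males. Unadjusted p under 0.05 (edgeR, not split by direction) was also counted with Beijing, Ithaca, Netherlands, Tasmania and Zimbabwe males. It held for 1, 5, 0, 7 and 8 of the 20 genes with 3 virgins, against 965, 961, 641, 885 and 554 of all 12045. With 2 virgins it was 3, 7, 0, 4 and 4. Mean IM1 was 240 and 243 CPM with Tasmania and Zimbabwe males and 58.1 to 105 CPM with the others (mate-line adjusted p = 0.68, edgeR).

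Carbohydrate digestion genes, maltases and amylases, had mostly negative values with 1 call. Of 14 tested, 1 fell with 3 virgins (7.14%, against 0.498% of all genes), and 2 were positive without virgin replicate 3; the median went from -0.56 to -0.68. The call, Mal-A8, picked with its values in view, had 24.9, 20.7 and 44.5 CPM in virgins and 4.2, 7 and 24.2 CPM in mated females (-1.75 ± 0.46, adjusted p = 0.0421; -1.34 ± 0.55, adjusted p = 0.579 without virgin replicate 3, where the level was highest; edgeR). Mal-B2 had 169, 178 and 158 CPM against 77.9, 109 and 142 CPM with no overlap and did not pass (-0.64 ± 0.20, adjusted p = 0.141; -0.69 ± 0.24, adjusted p = 0.401 without virgin replicate 3). Amyrel, an amylase-related gene, had 40.9, 56.7 and 28.4 CPM against 8.39 to 45.4 CPM (-1.25 ± 0.44, adjusted p = 0.218; -1.46 ± 0.51, adjusted p = 0.380 without virgin replicate 3). The digestive Jonah proteases went both ways: Jon25Bi and Jon25Bii, near-identical copies and so uncertain, had log2 changes of 1.39 ± 0.44 and 1.75 ± 0.54 and Jon65Ai -0.83 ± 0.31, none of which passed (adjusted p = 0.137, 0.113 and 0.262, edgeR). With 2 virgins they were 1.79 ± 0.55, 2.08 ± 0.67 and -0.95 ± 0.36 (adjusted p = 0.236, 0.279 and 0.455).

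Proteases of the female reproductive tract had large values and wide errors. Send2, a protease made in the spermathecae, had 0.215, 0.602 and 3.71 CPM in virgin replicates 1, 2 and 3 and 2.55, 15.3 and 86.9 CPM in mated females, and 14 of 15 mated libraries were above all virgins. Its log2 change was 3.68 ± 1.01 (adjusted p = 0.0605) with 3 virgins and 5.75 ± 1.55 (adjusted p = 0.104) with 2, so it did not pass in either. The serine protease gene CG17234 had 1.22, 0.301 and 4.46 CPM against 3.08, 19.9 and 78.8 CPM (3.33 ± 0.96, adjusted p = 0.0764; 4.84 ± 1.39, adjusted p = 0.165). Send1, also a spermathecal protease, had 7.81, 15 and 14.6 CPM against 1.92, 9.17 and 18.8 CPM, with broad overlap (-0.67 ± 0.48, adjusted p = 0.865; -0.53 ± 0.58, adjusted p = 1 without virgin replicate 3). Of the 10 genes in the list 0 were called by edgeR, 4 had an unadjusted p under 0.05, all higher (40%, against 3.55% of all genes), and the median was 0.34 with 3 virgins and 0.51 with 2.

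Fat body and ovary genes gave no calls. The satiety peptide gene fit had 45.1, 86 and 94.3 CPM in virgins and 75.9, 150 and 340 CPM in mated females (1.10 ± 0.33, adjusted p = 0.0982), and Cyp4d21 had 2.58, 2.26 and 3.04 CPM against 4.43, 7.17 and 14.3 CPM with no overlap (1.67 ± 0.49, adjusted p = 0.0824; edgeR). With 2 virgins these were 1.30 ± 0.41 and 1.80 ± 0.61 (adjusted p = 0.254 and 0.339). With 3 virgins both genes were higher by an unadjusted p under 0.05 (22.2% of their list, against 3.55% of all genes). The median of the 9 sex-biased fat body genes was -0.26 with 3 virgins and without virgin replicate 3, but 0.32 without replicate 1 and 0.01 without replicate 2. The yolk protein gene Yp1 had 9030, 8090 and 7560 CPM against 6360 to 18400 CPM (0.44 ± 0.34, adjusted p = 0.903; 0.38 ± 0.41, adjusted p = 1 without virgin replicate 3). Of 19 eggshell genes 0 were called by edgeR, and the median was -0.51. With 3 virgins 2, Cp7Fb and Cp7Fc, were lower at an unadjusted p under 0.05 (10.5%, against 5.15% of all genes). The summed eggshell level was 11800, 17800 and 7430 CPM in virgins and 2820 to 21200 CPM in mated females.

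Transcripts of the male tract did not separate the groups for seminal fluid or for testis and sperm genes. Summed seminal fluid protein genes were 4.82 to 6.3 CPM in virgins and 3.47 to 6.9 CPM in mated females, and summed testis and sperm genes 86.2 to 108 and 65.5 to 122 CPM; 0 of 46 and 0 of 30 genes tested were called by edgeR, and none had an unadjusted p under 0.05. The median log2 changes of these 2 lists were 0 and -0.01 with 3 virgins. In the other 4 lines they were 1.37 and 1.65, with 45 of 46 and 28 of 30 genes positive and 0 calls by edgeR. The seminal fluid sums are low, so their single log2 values rest on few reads. The gap between these list medians was not tested. PebIII, which makes up nearly all of the ejaculatory duct and bulb sum, had 386, 487 and 390 CPM in virgins and 449, 582 and 1000 CPM in mated females (0.57 ± 0.24, adjusted p = 0.397; 0.52 ± 0.29, adjusted p = 0.927 without virgin replicate 3).

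**Figure D4:**
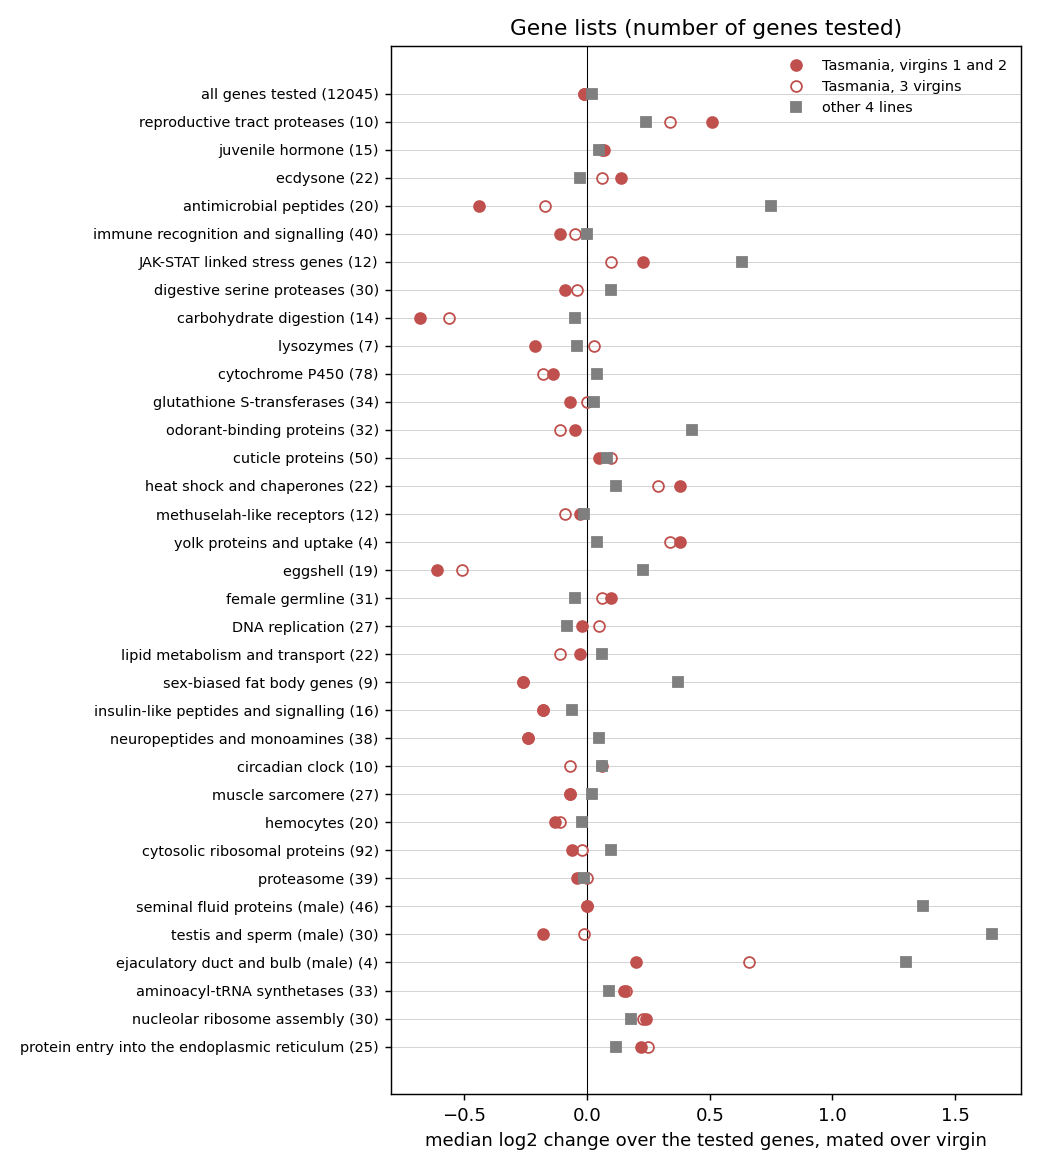
Median log2 change, mated over virgin (x axis), over the tested genes of each list (number in brackets; no error bars), for Tasmania females with virgins 1 and 2 (filled red), with 3 virgins (open red) and for the other 4 lines (grey squares). Carbohydrate digestion (-0.68) and eggshell (-0.61) stand lowest with virgins 1 and 2 and reproductive tract proteases (0.51) highest; for antimicrobial peptides the median is -0.44 and in the other lines 0.75, but with virgin replicates 2 and 3 (not drawn) it is 0.61 in Tasmania females. The 3 lowest entries were chosen after values were seen.

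The 5 crosses share the virgin libraries and are given side by side. The log2 change of jhamt was 2.28 ± 0.53 with Beijing, 1.98 ± 0.52 with Ithaca, 2.76 ± 0.53 with Netherlands, 3.14 ± 0.54 with Tasmania and 1.91 ± 0.53 with Zimbabwe males, with 3 virgins. That of CTPsyn was 0.49, 0.38, 0.41, 0.43 and 0.25 in the same order, each with an SE of 0.09. Neither gene was among the 25 that differed by line of mate. With 3 virgins the calls by edgeR numbered 31 (0.257%), 14 (0.116%), 5 (0.0415%), 28 (0.232%) and 5 (0.0415%) in the crosses with Beijing, Ithaca, Netherlands, Tasmania and Zimbabwe males. With 2 virgins they were 1, 2, 0, 6 (0.0498%) and 0; the crosses with 0 calls had 557 (Netherlands) and 352 (Zimbabwe) genes at an unadjusted p under 0.05, and no other tool was run on single crosses. In the cross with Tasmania males jhamt passed without virgin replicate 3 as well (3.15 ± 0.64, adjusted p = 0.0363, edgeR).

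Genes that respond to mating in the other lines were read in Tasmania females as an outside reference, since these comparisons share no library. In Beijing, Ithaca, Netherlands and Zimbabwe females together, 413 genes changed (3.43%), 338 higher (2.81%) and 75 lower (0.623%). In Tasmania females without virgin replicate 3, 295 of the 338 (87.3%) had a positive log2 change, with a median of 0.30 where the other lines had 0.43, and 65 of the 75 (86.7%) had a negative one, with -0.30 where the others had -0.32. At an unadjusted p under 0.05, 108 of the 338 were higher and 0 lower, and 30 of the 75 were lower and 0 higher. Over all 12043 genes of the same fit 46.7% were positive, and 342 were higher and 414 lower at that p. Across the 413 genes the changes had Pearson's r = 0.70; genes are not independent replicates, and all libraries come from 1 count table and 1 fit. Taking the other lines without Zimbabwe gave 194 genes, of which 90.7% had the same sign in Tasmania females (r = 0.72).

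**Figure D5:**
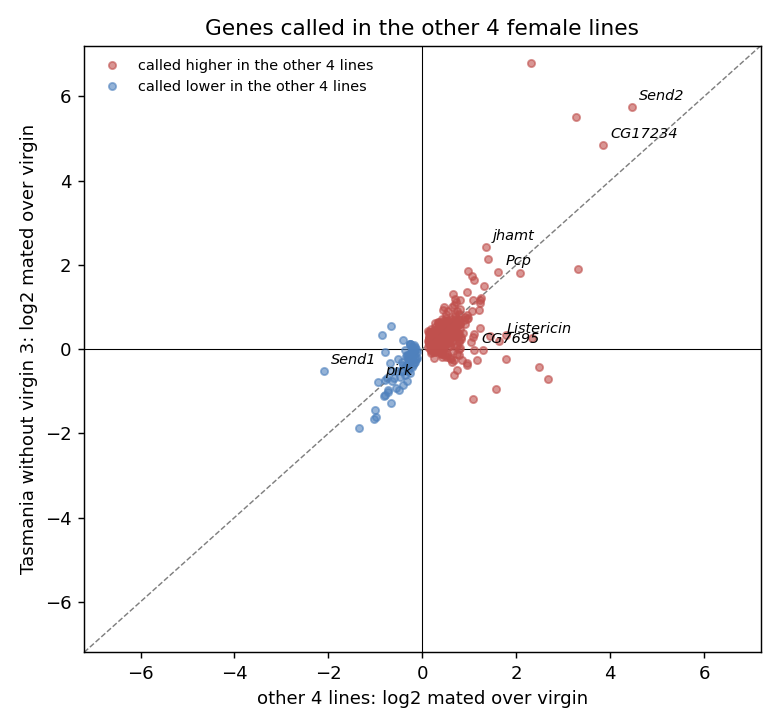
Log2 change, mated over virgin, in the other 4 female lines (x axis) and in Tasmania females without virgin replicate 3 (y axis) for the 413 genes called in the other 4 lines, red where called higher and blue where called lower; the dashed line marks equal change, and no error bars are drawn. Most points share a sign on both axes (360 of 413), and CG7695 (-0.02) and Listericin (0.20) lie near 0 in Tasmania females.

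Single genes of that reference differed in how close the Tasmania value was. Pcp changed by 1.61 ± 0.22 in the other lines and by 1.82 ± 0.49 in Tasmania females without virgin replicate 3, and Cpr47Ef by 1.22 ± 0.16 and 1.16 ± 0.39. The small heat shock gene l(2)efl had 0.79 ± 0.10 and 0.68 ± 0.24, and PGRP-SC1b had -1.34 ± 0.20 and -1.87 ± 0.40. Weak values were seen here for 3 genes with strong changes elsewhere: Send1 with -2.10 ± 0.22 against -0.53 ± 0.58, Listericin, an immune and stress gene linked to JAK-STAT signalling, with 1.64 ± 0.20 against 0.20 ± 0.41, and CG7695 with 1.11 ± 0.13 against -0.02 ± 0.26. The difference itself was tested and did not pass for any of them, with adjusted p of 1, 0.520 and 0.153 without virgin replicate 3 and 0.760, 0.206 and 0.219 with it (edgeR). The same holds for Hsp83, which had 0.15 ± 0.08 in the other lines (difference 0.61 ± 0.20, adjusted p = 0.794 without virgin replicate 3). CG10345 had 0.60 ± 0.08 in the other lines and 0.17 ± 0.19 in Tasmania females without virgin replicate 3. Its difference did not pass either (adjusted p = 0.248 with 3 virgins, edgeR). Send1, Listericin, CG7695 and CG10345 were chosen by their small p in the other lines, which favours large values there.

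Tests of the Tasmania response against the mean of the other 4 lines called 14 genes with 3 virgins (0.116%), all lower in Tasmania, and 11 of these 14 are at least 2-fold higher in mated Zimbabwe than in mated Tasmania females. On leaving out virgin replicate 3 the test called 1 gene (0.0083%), CG4998, whose response was 2.16 log2 units lower than in the other lines (log2 difference -2.16, adjusted p = 0.00622, edgeR); 451 genes had an unadjusted p under 0.05, and DESeq2 called 5. In the other lines CG4998 changed by 0.06 ± 0.15. With virgin replicate 1 left out as well, so that 1 virgin library remains and is taken to vary like the other groups, edgeR's test called 0 genes, with 972 at an unadjusted p under 0.05; with virgin replicate 2 left out instead it called 9, all lower in Tasmania and 1 of them CG4998. DESeq2 was not run on these subsets.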

How the data were processed

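Whole females were sequenced as single reads of 100 bases from libraries made with a kit taken to keep no strand; how reads of overlapping genes were counted is not given in the sources used here, so values of such genes are uncertain. The authors deposited unnormalized counts, 1 whole number per gene and library. Their tools, per the submitters' processing notes, included HTSeq, TopHat2, Trimmomatic and FastQC, on dm3; versions, annotation release and counting options are not given in the sources used here. The table has 14522 rows, of which 8 hold a number in place of a gene symbol and were left out of totals and tests. Symbols were matched to a reference of another build (BDGP6) for current names and exon lengths (14321 rows, 98.6%), and no coordinates or sequences are printed.

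The tools were edgeR 4.0.16 and, for an alternative, DESeq2 1.42.0 under R 4.3.3. The function filterByExpr selected genes over the 30 groups, libraries were scaled by TMM (factors 0.916 to 1.08 in Tasmania females), and edgeR's quasi-likelihood model with 1 mean per group and robust estimation was fitted to all 89 libraries, so that all groups share one estimate of the spread. Mated minus virgin is the mean of the 5 crosses minus the virgins, and the difference from the other lines subtracts the mean of the same contrast in 4 lines. P-values were adjusted over all genes tested by Benjamini and Hochberg, genes under 0.05 were called, standard errors are the absolute log2 change over the square root of F, and CPM use TMM library sizes. Scripts were tested on simulated counts. No 2 replicates agreed within counting noise (chi-square per degree of freedom 30.1 to 118 over 18 pairs), so none were merged; depth limits the genes of a few CPM.

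Markers of a line had a median of at least 5 CPM in its mated libraries and 10-fold over every other line's median. Named genes are with 3 virgins and a mean log2 CPM from 1 up, the 8 calls of largest change per direction, calls and the 8 smallest p per direction with 2 virgins, the 12 smallest p in the other 4 lines, up to 3 genes per list, and calls of the difference from the other lines. Not every gene that this rule names is reported here. The genes, lists, comparisons and alternatives were chosen with earlier results of these data known. Alternatives were DESeq2's test and size factors, no low-count filter, a replicate block, a gene length covariate, leaving out each replicate, virgin library or cross, and Tasmania libraries alone.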

Additional observations from a re-analysis of the deposited data

Results flagged for a closer look

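Results are listed here because the response in Tasmania females differed from the mean response of the other 4 lines by a test of the difference itself (edgeR, adjusted p under 0.05); values are that difference on the log2 scale, negative where Tasmania is lower. Without virgin replicate 3 this was CG4998 (-2.16, adjusted p = 0.00622). With all 3 virgins it was -2.01 for CG4998, -5.17 for CG11313, -4.98 for CG18563, -4.95 for CG32718, -4.75 for mthl8, -4.49 for Jon65Aii, -3.37 for CG31832, -2.18 for GAPsec, -1.99 for Hsc70-2, -1.86 for CG31626, -1.67 for CG7966, -1.31 for CG3259, -1.24 for CR43837 and -0.66 for CG9008. Of these 14 genes, 11 are at least 2-fold higher in mated Zimbabwe than in mated Tasmania females, and virgin replicate 3 is the highest of the Tasmania virgins in 11; without that library 13 of them were no longer called. The part of the Zimbabwe RNA in each single difference was not tested. For CG18563 virgin replicate 1 was the highest, at 2.94 CPM against 0 and 0.0375 CPM in replicates 2 and 3. Its difference was -5.57 (adjusted p = 0.0728, edgeR) without virgin replicate 3. CG31832 had very low levels, with 0.143, 0.151 and 0.3 CPM in virgin replicates 1, 2 and 3. For CG9008 the virgins agree closely (51.4, 58.4 and 58.3 CPM), and mated Zimbabwe females have a median of 33.7 CPM.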

How the results depend on the processing

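With 3 virgin libraries the 99 calls became 185 under DESeq2's test, 166 with a replicate block, 475 with the gene length covariate, 57 without the cross with Ithaca males, 4 with Tasmania libraries alone and 59 among genes alike in the Zimbabwe and Tasmania lines. Leaving out 1 replicate number or virgin library gave 2 to 53. Without virgin replicate 3 the 2 calls became 55 (DESeq2), 11 (replicate block), 122 (length covariate), 0 (Tasmania alone, where no other tool was run) and 4, 16 and 9 without the crosses with Beijing, Tasmania and Zimbabwe males, with 2 to 9 on leaving out a replicate or virgin. The 14 genes that differed from the other lines became 42 with DESeq2 and 24 with the covariate, and 1 to 18 on leaving out a replicate or virgin; the 1 without virgin replicate 3 became 5, 5 and 0 to 9. In the other lines the 413 became 194 without Zimbabwe. The cause of these moves was not tested; leaving libraries out tests fewer samples. Whether replicate numbers pair virgin with mated samples was not settled. Same-numbered virgin and mated libraries had deviations correlated at -0.37, 0.28 and 0.48 for virgin replicates 1, 2 and 3, which are too few values to decide. Among the mated crosses the number carried a shared effect: 12 of 15 libraries correlated best with the libraries of their own number in the other crosses (-0.32 to 0.81). A replicate block, added after seeing the data, left 20 of the 25 genes that differed by line of mate. The Zimbabwe share of virgin replicate 3 was 15.8% to 21.1% over 3 other marker settings. No mated library was over the 10% limit for another line's RNA, so that alternative left nothing out.

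Some changes turned sign when a replicate number or virgin library was left out. With 3 virgins their range was -4.32 to 4.39 for CG6639, -3.06 to 0.07 for GAPsec, -0.02 to 0.67 for CG7695 and -1.21 to 1.26 for IM1. With 2 virgins it was -5.13 to 4.76 for CG6639, -2.74 to 0.55 for CG11313, -1.92 to 2.26 for Cyp12d1-d, -2.53 to 0.03 for CG32718, -0.81 to 0.52 for GAPsec, -0.93 to 0.09 for Send1, -0.34 to 0.36 for CG7695 and -2.05 to 1.45 for IM1; CG7695 was also 0.01 without the cross with Ithaca or with Zimbabwe males.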

Other observations

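The neuropeptide and insulin lists had no calls in Tasmania females and mostly negative values. Of 38 neuropeptide and monoamine genes tested 0 were called by edgeR, 7 were positive with 3 virgins and 6 without virgin replicate 3, and the median log2 change was -0.24 in both; in the other 4 lines it was 0.05. The tyrosine hydroxylase gene ple, which makes the precursor of dopamine, was an exception at 38.5, 11.1 and 28.2 CPM in virgins and 25.7, 45.5 and 87.1 CPM in mated females (0.92 ± 0.38, adjusted p = 0.369; 0.99 ± 0.47, adjusted p = 0.731 without virgin replicate 3; edgeR). Of 16 genes of insulin-like peptides and signalling 0 were called and 0 positive with 3 virgins, and 4 were positive with 2, with a median of -0.18 in both. Ilp8, a relaxin-like peptide, had 113, 236 and 148 CPM in virgins and 32.5, 76.1 and 132 CPM in mated females (-1.10 ± 0.37, adjusted p = 0.164; -1.18 ± 0.43, adjusted p = 0.427 without virgin replicate 3; edgeR).

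Lipid genes went both ways without a call among 22 tested. The lipase gene bmm had 107, 105 and 109 CPM in virgins and 63.7, 74.6 and 99.5 CPM in mated females, and the desaturase gene desat1 2500, 2340 and 2570 CPM against 1640, 1810 and 2340 CPM (-0.44 ± 0.15 and -0.37 ± 0.12, adjusted p = 0.164 and 0.162, edgeR). Rfabg, the lipophorin precursor, had 1560, 1030 and 1830 CPM against 1240, 2170 and 3410 CPM (0.57 ± 0.24, adjusted p = 0.379). Without virgin replicate 3 these 3 changes were -0.42 ± 0.17, -0.34 ± 0.15 and 0.75 ± 0.29 (adjusted p = 0.582, 0.628 and 0.473). For bmm and desat1 every mated library lay below every virgin. Levels of the gene CG13749, annotated as BaraB and picked with its values in view, were 9.1, 25.2 and 16.4 CPM in virgins and 0.85, 4.65 and 13.5 CPM in mated females; it fell with 3 virgins (-1.86 ± 0.42, adjusted p = 0.0124) and had -1.88 ± 0.50 (adjusted p = 0.104) without virgin replicate 3.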
